A study of Homo sapiens with 8 samples.

Results

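The genes of the AP-1 and small MAF transcription factors were examined for binding of ETS1 and of 4 other factors, as seen in chromatin immunoprecipitation followed by sequencing (ChIP-seq). The 9 genes were FOSL1, FOSL2, JUN, JUNB, JUND, ATF3, MAFF, MAFG and MAFK. All peaks with any base within 50 kb of the hg19 start of 1 of these genes were taken, which gave 85 of the 24078 peaks in the 7 deposited lists. ATF3 has 2 starts in the rule and the other genes have 1. The starts are given to the nearest 1 kb, so the distances below carry an uncertainty of 500 bp. Assignment was by distance alone, and some of these peaks also lie close to other genes. In the RefSeq gene order (GRCh38.p14), for example, FOSL1 stands between CCDC85B and C11orf68, JUNB between HOOK2 and PRDX2, and MAFG between SIRT7 and PYCR1.

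AP-1 is a dimer of leucine zipper proteins, in which a JUN protein (JUN, JUNB or JUND) pairs with another JUN, with a FOS protein such as FOSL1 or FOSL2, or with a protein of the ATF group such as ATF3. It binds the sequence TGACTCA, and dimers with ATF proteins also bind TGACGTCA. The small MAF proteins MAFF, MAFG and MAFK have the same kind of zipper but no activation domain of their own, and they pair with NRF2 and related partners at sites that contain an AP-1-like core. In epithelial cancer cells, RAS/ERK signalling raises AP-1 activity, among other routes through FOSL1, and composite ETS and AP-1 sites are a known route by which this pathway reaches its targets.

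The 5 factors were precipitated from DU145, a prostate cancer line, with antibodies to ETS1, JUND, GABPA, ELK4 or ELF1, and ETS1 was also precipitated from PANC1, a pancreatic cancer line. ETS1, GABPA, ELK4 and ELF1 are ETS proteins, which recognise a GGAA core, and JUND is itself an AP-1 subunit and 1 of the 9 genes. Cultures were kept in serum-containing DMEM, with puromycin where selected, no treatment is named, and the growth text attached to the PANC1 sample speaks of DU145 cells only. The ETS1 antibody was the same product in both lines but of different lots. There was 1 sample per factor and line, so no test across samples was possible. The intervals below are exact 95% Clopper-Pearson intervals for counting error, and they treat peaks as independent although several share a gene. The files hold positions only, the reads behind each list are unknown, and the lack of a peak therefore does not show a lack of binding.

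The DU145 ETS1 sample has 2 lists, here called the first and the second, and an ETS1 region means a merged interval with at least 1 peak of each. The first list contributed 35 of its 9984 peaks, the second 28 of 9306, JUND 8 of 1308, GABPA 7 of 2478, ELK4 2 of 337, ELF1 1 of 256 and PANC1 ETS1 4 of 409. As shares of their lists these were 0.351% (0.244 to 0.487%), 0.301% (0.200 to 0.435%), 0.612% (0.264 to 1.20%), 0.282% (0.114 to 0.581%), 0.593% (0.072 to 2.13%), 0.391% (0.00989 to 2.16%) and 0.978% (0.267 to 2.49%). All of these intervals overlap. The lists differ in width, with a median of 1173 bp in the first ETS1 list, 696 bp in the JUND list and between 495 and 497 bp in the others.

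The 5′ flanks of 4 genes are shown first, because an ETS1 region lay at the start of each and because these genes differ in what else was found there. Of the 9 genes, 7 had an entry in the RefSeq promoter table (GRCh38.p14). The 250 bases before the RefSeq start are printed 5′ to 3′ for FOSL2 (chr2:28392608-28392857, plus strand), JUN (chr1:58784048-58784297, minus strand), JUNB (chr19:12791236-12791485, plus strand) and JUND (chr19:18281623-18281872, minus strand). Capitals mark GGAA or its complement TTCC and the complete sequence TGACGTCA.
FOSL2: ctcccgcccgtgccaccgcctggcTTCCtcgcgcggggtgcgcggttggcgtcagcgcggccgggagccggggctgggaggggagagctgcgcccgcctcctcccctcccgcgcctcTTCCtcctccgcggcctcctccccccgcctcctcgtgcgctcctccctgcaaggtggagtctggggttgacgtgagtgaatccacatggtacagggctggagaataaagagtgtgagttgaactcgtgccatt
JUN: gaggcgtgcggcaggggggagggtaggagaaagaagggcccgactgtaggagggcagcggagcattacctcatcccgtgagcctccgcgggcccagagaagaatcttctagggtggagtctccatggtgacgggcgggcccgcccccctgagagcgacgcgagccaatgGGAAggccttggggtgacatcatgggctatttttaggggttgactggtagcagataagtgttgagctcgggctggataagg
JUNB: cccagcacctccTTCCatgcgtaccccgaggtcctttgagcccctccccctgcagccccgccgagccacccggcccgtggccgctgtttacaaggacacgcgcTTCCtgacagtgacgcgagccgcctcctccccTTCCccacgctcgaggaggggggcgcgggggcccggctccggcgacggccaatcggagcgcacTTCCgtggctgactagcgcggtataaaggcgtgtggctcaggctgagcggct
JUND: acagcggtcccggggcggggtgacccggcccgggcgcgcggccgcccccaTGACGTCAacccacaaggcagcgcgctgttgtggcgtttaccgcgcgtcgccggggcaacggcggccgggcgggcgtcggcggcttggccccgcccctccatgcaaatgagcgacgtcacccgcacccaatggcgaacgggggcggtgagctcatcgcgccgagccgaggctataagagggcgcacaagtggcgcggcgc

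Motifs were counted on both strands in the whole table entry, which also holds 50 bases after the start. No motif letters overlapped those of another in the stretches shown. JUNB had 4 matches to GGAA, FOSL2 had 2, JUN and MAFG had 1 each, and JUND had 0, while 95.5% of the 35116 promoters in the table held at least 1. ATF3 and MAFF have 2 RefSeq starts each, with 4 and 1 matches for ATF3 and 5 and 4 for MAFF. The AP-1 sequence TGACTCA occurred in FOSL2 alone of these 7 genes, from base 5 after the start and so beyond the stretch printed, and 4.95% of all promoters held it. TGACGTCA occurred in JUND, from 200 bases before the start, and at the first of the RefSeq starts of MAFF, from 54 bases before it, against 1.85% of all promoters. None of the 7 genes had CCGGAAGT (4.14% of promoters), the composite of GGAA, any 1 base and TGANTCA (0.185%) or a CArG box (1.29%), the site of serum response factor, in these windows. Only exact matches were counted, so near matches to TGACTCA or TGACGTCA, such as tgacatca in the JUN stretch, were left out. The peaks are in hg19 and were not placed base by base on these stretches.

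ETS1 regions were found near 8 of the 9 genes, and at the start of 6 of them. How often the starts of other genes have an ETS1 region was not computed, so neither count can be called particular to these genes. FOSL1 had 6 ETS1 regions, JUNB 5, JUND, MAFG and MAFK 4 each, JUN 2, and FOSL2 and MAFF 1 each, which makes 27 of the 8183 regions of the series (0.330%, 0.218 to 0.480%). ATF3, a stress-induced gene, had none. It had 1 peak of the first list, at chr1:212732028-212732804, 6.6 kb from the earlier start, and no peak of any other list. An ETS1 region of the series had a median of 2 ETS1 regions within 50 kb of its centre, itself included, with quartiles of 1 and 3. At least 4 were found around 14.8% of them, at least 5 around 7.5% and at least 6, as at FOSL1, around 3.64%. These shares centre on ETS1 regions, which always count themselves, and give no share for gene starts.

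**Figure D1:**
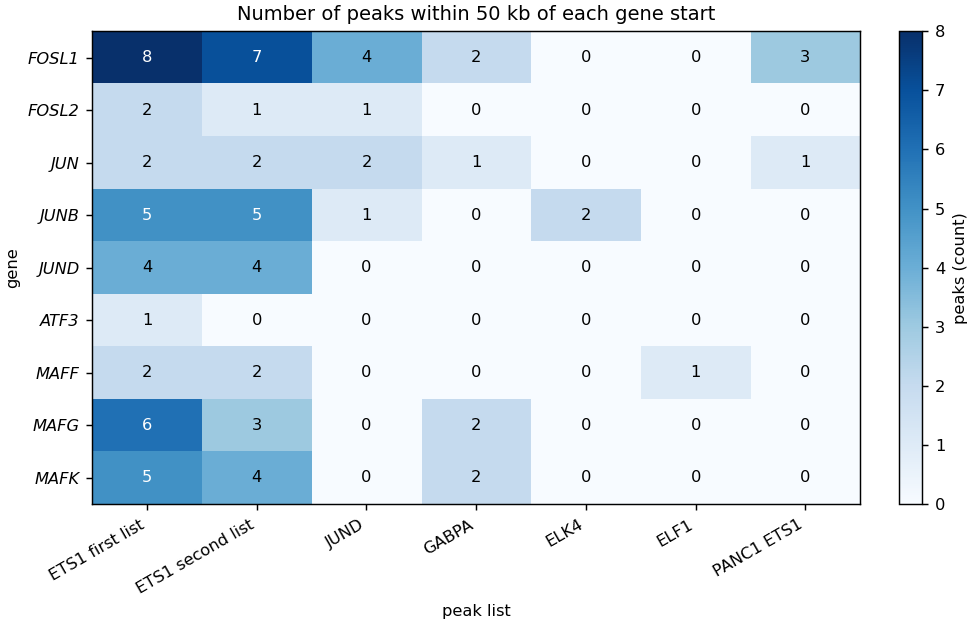
Number of peaks within 50 kb of the start of each gene (rows) in each of the 7 lists (columns), with darker blue for higher counts. FOSL1 has 24 peaks in 5 lists, JUND has 8 in the ETS1 lists alone, and ATF3 has 1.

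The other lists were spread unevenly over the genes. JUND peaks lay near 4 genes, all of the FOS and JUN families, namely FOSL1 with 4 peaks, JUN with 2, and FOSL2 and JUNB with 1 each. They were absent near JUND itself, where the nearest JUND peak was 379.2 kb away, near ATF3 (80.4 kb) and near all 3 small MAF genes (59.0 kb for MAFG, 580.1 kb for MAFK and 1318.2 kb for MAFF). GABPA peaks lay near FOSL1, MAFG and MAFK with 2 each and near JUN with 1. ELK4 peaks were found at JUNB alone among the 9 genes, and the single ELF1 peak was near MAFF. PANC1 ETS1 peaks lay near FOSL1, with 3, and JUN, with 1. Such absences are the usual case in these lists. Among all ETS1 regions of the series, 83% had no JUND peak within 50 kb, 55.6% no GABPA peak, 92% no ELK4 peak, 94.4% no ELF1 peak and 91.4% no PANC1 ETS1 peak.

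**Figure D2:**
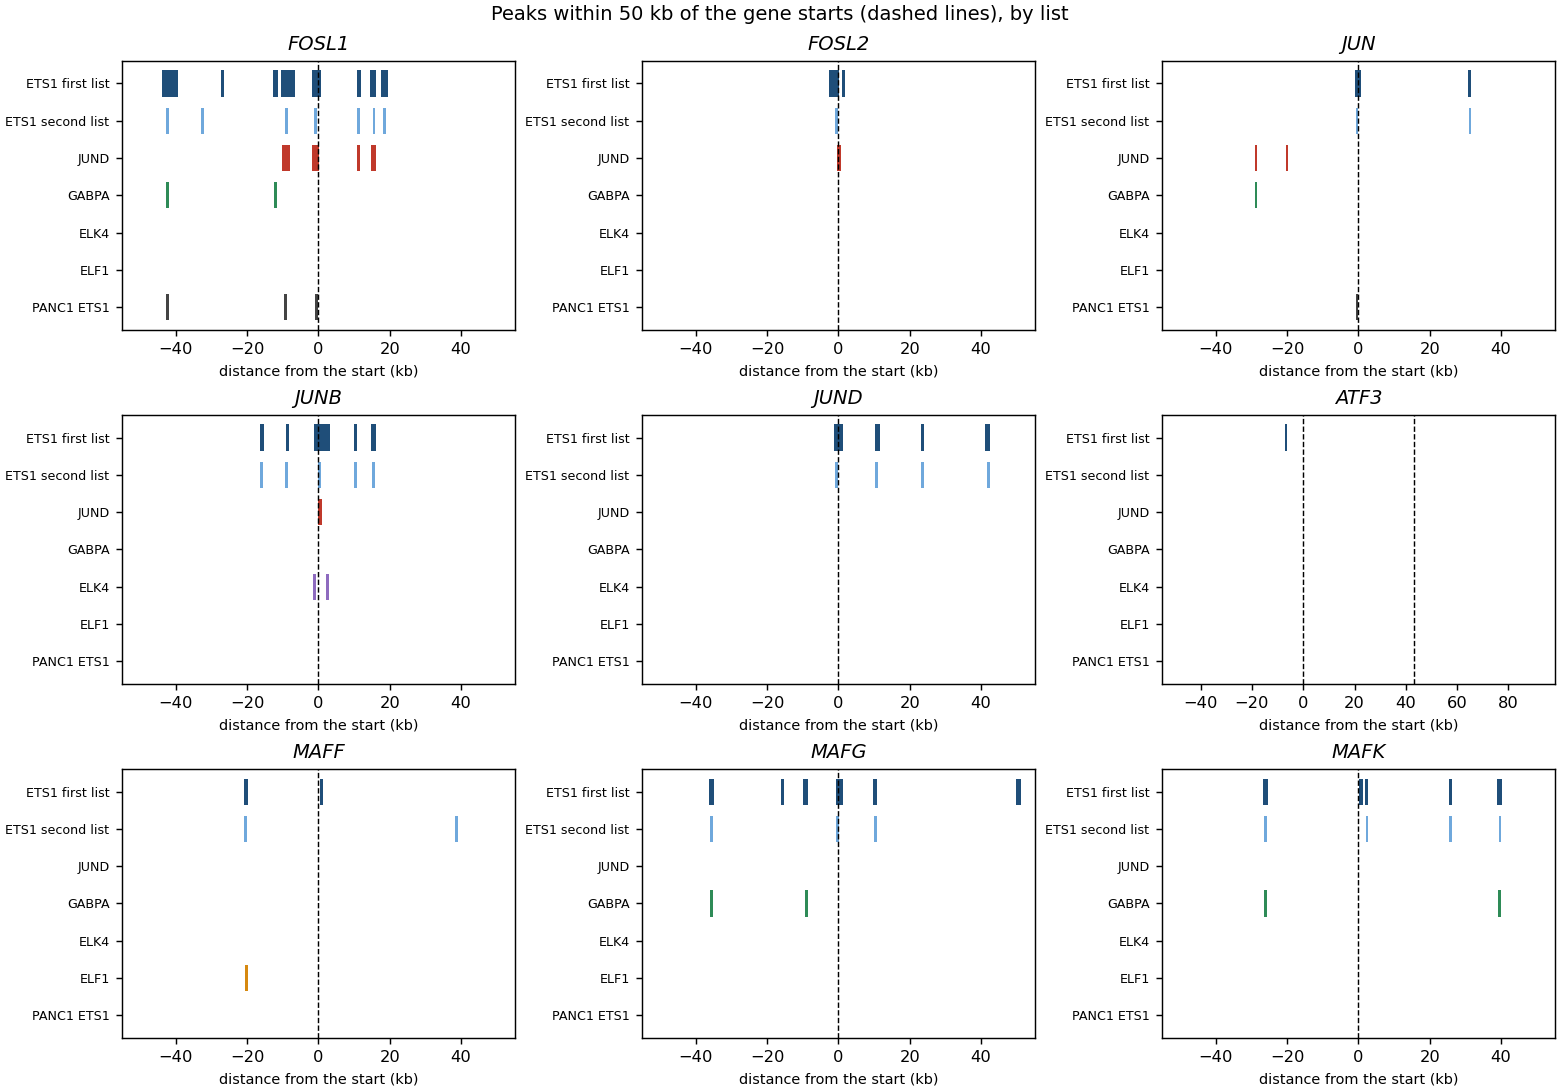
Peaks of the 7 lists (rows) against distance from the gene start in kb, towards higher hg19 coordinates on the right, with dashed lines at the starts. Peaks narrower than 0.8 kb are drawn 0.8 kb wide so that they can be seen, and the JUND row is empty for JUND, ATF3, MAFF, MAFG and MAFK.

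Among the 18 ETS1 regions of the FOS and JUN genes, 6 held a JUND peak (33.3%, 13.3 to 59.0%) and 2 held a peak of another ETS factor (11.1%, 1.38 to 34.7%). Among all ETS1 regions of the series, 4.89% held a JUND peak and 30.4% held a peak of another ETS factor. Of the 9 ETS1 regions of the small MAF genes, 0 held a JUND peak, which is not unusual at that series share. At a floor of 3 counts the true share could still be 33.3%. Another ETS factor was present at 5 of these 9 (55.6%, 21.2 to 86.3%). By family, JUND was present at 5 of 7 regions of the FOS genes (71.4%, 29.0 to 96.3%) and at 1 of 11 of the JUN genes (9.09%, 0.230 to 41.3%). Of those 7 regions, 6 are at FOSL1 and 1 at FOSL2, so the FOS value is largely that of a single locus. The interval of the JUN genes contains the series share of 4.89%. Between the FOS and JUN genes together and the small MAF genes, the intervals of both quantities overlap, and the difference was not tested. FOSL1 supplied 4 of the 6 regions with JUND.

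Over all 9 genes, 6 of 27 ETS1 regions held a JUND peak (22.2%, 8.62 to 42.3%), against 394 of 8156 elsewhere (4.83%, 4.38 to 5.32%). In the whole series the share was 4.89%. The FOSL1 regions carry this: without them 2 of 21 held JUND (9.52%, 1.17 to 30.4%), an interval that contains the share elsewhere. A PANC1 ETS1 peak was present at 4 of 27 regions (14.8%, 4.19 to 33.7%), against 292 of 8156 elsewhere (3.58%, 3.19 to 4.01%) and 3.62% in the whole series. Without FOSL1 this was 1 of 21 (4.76%, 0.120 to 23.8%). Another ETS factor was found at 7 of 27 (25.9%, 11.1 to 46.3%), close to the 30.4% of the whole series. This was GABPA at 4 regions (28.1% in the series), ELF1 at 2 (2.79%) and ELK4 at 1 (3.25%). JUND and PANC1 ETS1 occurred together at 2 of the 27, both at FOSL1, against 0.77% of all ETS1 regions. No peak of the other 5 lists was present at 14 of 27 regions (51.9%, 31.9 to 71.3%), against 5204 of 8156 elsewhere (63.8%, 62.8 to 64.8%) and 63.8% in the whole series, so a region that meets no other list is the usual case.

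Read from the JUND list, 6 of the 8 JUND peaks near these genes lay in an ETS1 region (75%, 34.9 to 96.8%), against 404 of 1300 elsewhere (31.1%, 28.6 to 33.7%), with 31.3% in the whole list. Without FOSL1 this was 2 of 4. Of the 7 GABPA peaks, 4 lay in an ETS1 region (57.1%, 18.4 to 90.1%), against 2303 of 2471 elsewhere (93.2%, 92.1 to 94.2%) and 93.1% in the whole list. The 3 GABPA peaks outside ETS1 regions differed in kind. Those at FOSL1 (12 kb from the start) and MAFG (9.0 kb) met a peak of the first ETS1 list alone, and the one at JUN met neither ETS1 list. Both ELK4 peaks, the ELF1 peak and all 4 PANC1 ETS1 peaks lay in ETS1 regions, as did 79.2%, 89.1% and 74.1% of their whole lists.

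FOSL1 encodes the FOS protein FRA-1, which lacks a strong activation domain and is stabilised by ERK phosphorylation. The gene runs towards lower coordinates and is 8497 bp long in RefSeq. It had the densest set of peaks of the 9 genes, at 9 separate sites. The gene stands between CCDC85B and C11orf68, and which of these sites lie closer to a neighbouring gene was not determined. At its start, the ETS1 region chr11:65666306-65668600 held a JUND peak 2051 bp wide, at chr11:65666126-65668176, and a PANC1 ETS1 peak. The centre of the JUND peak was 67 bp from that of the second-list ETS1 window, and the PANC1 centre was 191 bp from it. These windows lay 0.6 to 0.8 kb on the lower side of the start, which is inside the gene. In the rat, AP-1 sites within the first intron are known to enhance transcription of this gene.

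A second FOSL1 site with the same 3 assays, chr11:65657556-65661447, was centred 8.5 kb from the start, close to the other end of the gene. Its first-list ETS1 peak was 3892 bp wide, a width reached by 0.751% of that list. The JUND peak inside it was 2247 bp wide, a width that 0.765% of the JUND list reached, and it stood on line 5 of 1308. ETS1 and JUND centres were 186 bp apart, but the PANC1 centre was 346 bp from the DU145 ETS1 window and shared 151 bp with it.

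On the far side of the start, in the 5′ flank, ETS1 and JUND met at 2 further sites. One was chr11:65678763-65679852, 11.3 kb away, with centres 22 bp apart, and the other was chr11:65682560-65684240, 15.4 kb away, with centres 248 bp apart. The next ETS1 region, 18.5 kb away, met no other list. Beyond the 3′ end, the ETS1 region chr11:65624114-65628740 lay 41.6 kb from the start and was the widest near FOSL1 (4627 bp). It held GABPA and PANC1 ETS1 peaks and no JUND peak, and the PANC1 window was 6 bp from the DU145 window in centre and shared 490 bp with it. JUND and GABPA thus met no common site at FOSL1, where JUND lay at 4 sites and GABPA at 2. In the whole series 60 of 2478 GABPA peaks met a JUND peak, so a GABPA peak without JUND is the usual case.

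Few stretches of the series were as full. At least 4 JUND peaks lay within 50 kb of 64 ETS1 regions (0.782%), 5 of which are at FOSL1 itself. At least 3 PANC1 ETS1 peaks lay around 80 (0.978%), 3 of them at FOSL1. The combination of at least 6 ETS1 regions, 4 JUND peaks and 3 PANC1 ETS1 peaks was met around 3 ETS1 regions, of which 2 are at FOSL1. All of these cut-offs are the counts found at FOSL1 itself, so FOSL1 meets them by construction and their rarity is no evidence about the gene. These counts centre on ETS1 regions and not on gene starts, so they describe the lists and are not a test of the gene.

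**Figure D3:**
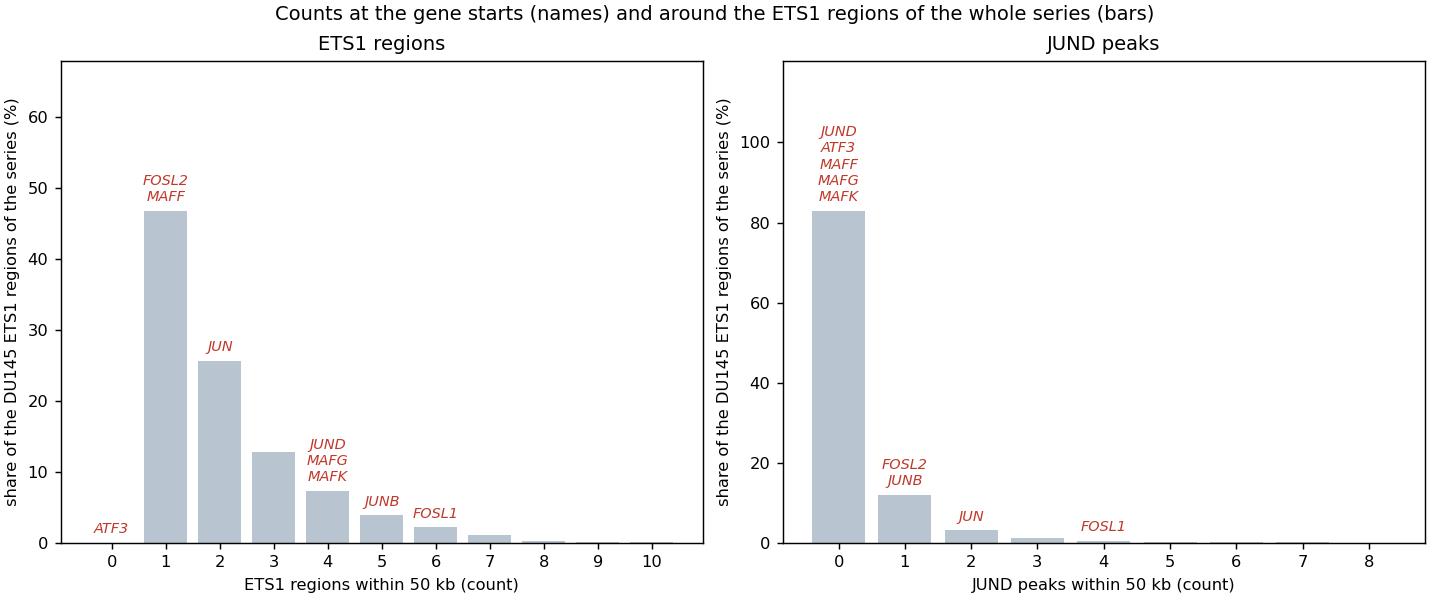
Bars give the share (%) of the 8183 DU145 ETS1 regions that have a given number of ETS1 regions, themselves included (left), or JUND peaks (right) within 50 kb of their centre, and names stand above the count found around each gene's start. FOSL1 stands at 6 ETS1 regions and 4 JUND peaks, and ATF3 at 0 of both.

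FOSL2, which encodes the related FOS protein FRA-2, had a single ETS1 region, at its start. The region chr2:28613457-28616260 was 2804 bp wide and held a JUND peak of 1154 bp at chr2:28615529-28616682. The JUND centre lay 522 bp from that of the second-list ETS1 window, the widest such spacing among the 6 regions with both, and the intervals shared 297 bp. A separate first-list peak 553 bp wide followed 1.4 kb after the start. No GABPA, ELK4, ELF1 or PANC1 ETS1 peak was near FOSL2, and the nearest GABPA peak was 621.4 kb away.

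JUN, a gene known to be activated by its own product, was the second gene with ETS1 at the start in both cell lines. The DU145 region chr1:59248928-59250661 held the PANC1 peak chr1:59249378-59249875. Their windows were 26 bp apart in centre and shared 472 bp. This region held no JUND peak. In the whole JUND list 31.3% of peaks lay in an ETS1 region, so a JUND peak outside any is the usual case. Both JUND peaks near JUN lay away from ETS1, at 28.7 and 20 kb on the lower-coordinate side. This is beyond the 3′ end because the gene runs towards lower coordinates. They stood late in their list, on lines 1014 and 1233 of 1308. The first of them, chr1:59220981-59221592, enclosed the GABPA peak chr1:59221040-59221539, and neither ETS1 list had a peak there. Among all 60 GABPA peaks of the series that met JUND, 2 had no peak of either ETS1 list, and the one at JUN is 1 of those 2 (0.0807% of all GABPA peaks).

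JUNB is an immediate-early gene that serum response factor and its ELK partners are known to regulate. It was the one gene of the 9 with ELK4 peaks, and whether that route accounts for them was not tested. Its start lay in the widest first-list ETS1 peak near any of the 9 genes, chr19:12900688-12905315, at 4628 bp, a width reached by 0.411% of the list. This region held 1 JUND peak and both ELK4 peaks, but at different places. The JUND peak chr19:12902000-12903149 overlapped the second-list ETS1 window, with centres 161 bp apart. One ELK4 peak, chr19:12900660-12901158, was 1.1 kb upstream, and the other, chr19:12904202-12904694, was 2.4 kb downstream, past the end of a gene that is 1830 bp long. They were 1504 and 2034 bp from the ETS1 window in centre and shared 0 bp with it. The ELK4 peaks stood on lines 66 and 22 of 337. At least 2 ELK4 peaks lay within 50 kb of 21 ETS1 regions of the series (0.257%), and 5 of these 21 are at JUNB. The cut-off of 2 is the count at JUNB itself, so this is a description and not a test. The other 4 ETS1 regions near JUNB, between 8.7 and 15.8 kb from the start, were 870 to 1264 bp wide and, like 63.8% of all ETS1 regions, met no other list.

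**Figure D4:**
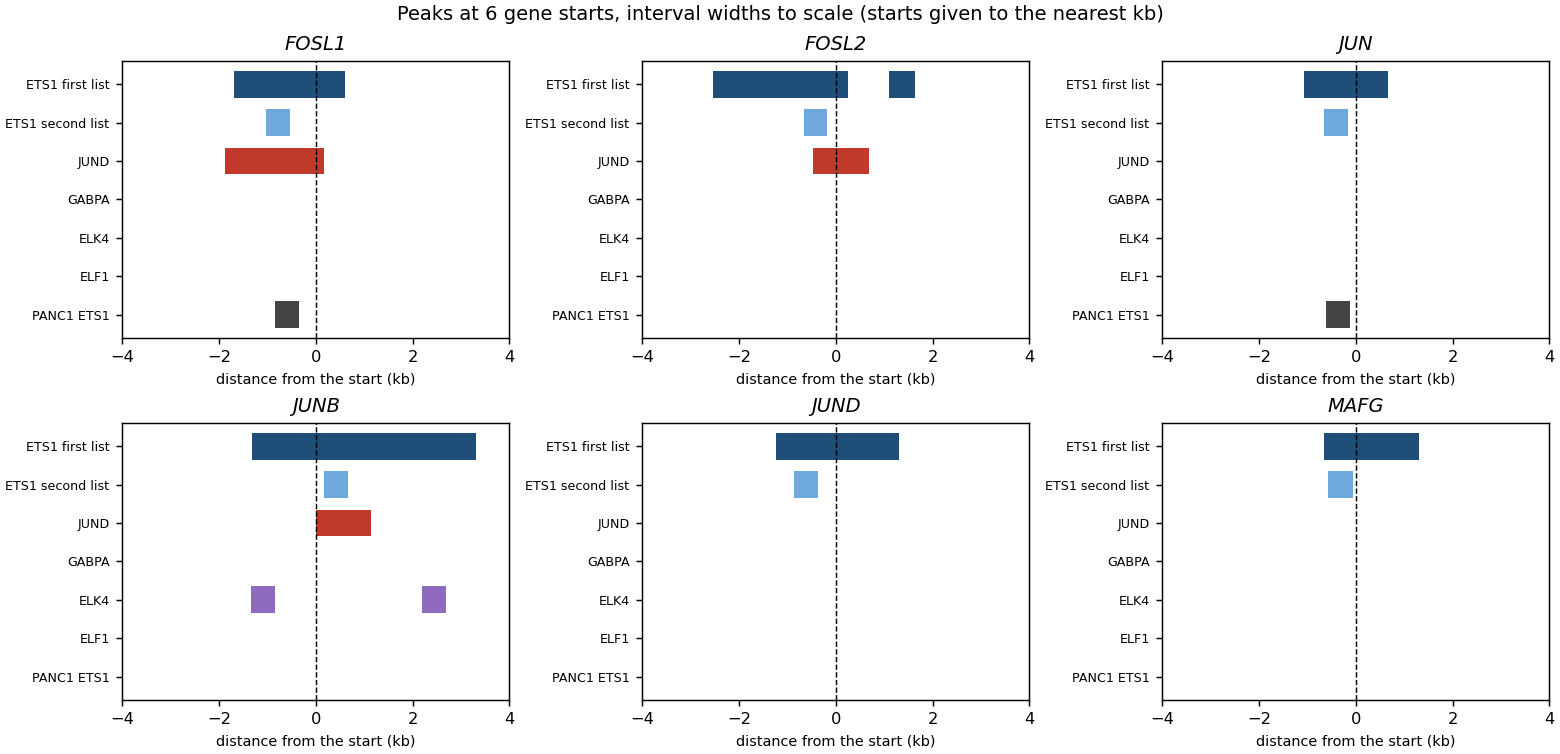
Peaks of the 7 lists (rows) within 4 kb of the start of the 6 genes with an ETS1 region there, with interval widths to scale and distance in kb, towards higher hg19 coordinates on the right. At JUNB the ELK4 peaks lie 1.1 and 2.4 kb from the start, on opposite sides of the ETS1 window, and at JUND and MAFG the ETS1 lists stand alone.

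JUND had ETS1 regions at its start, chr19:18390759-18393312, and at 10.9, 23.5 and 41.8 kb on the higher-coordinate side, which is upstream of this minus-strand gene. None of these 4 met a peak of any other list, as was so for 63.8% of all ETS1 regions. The region at the start was 2554 bp wide, and its first-list peak stood on line 972 of 9984. It is the gene whose RefSeq promoter above held 0 matches to GGAA. The 250 bases shown cover a small part of the region.

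The 9 ETS1 regions of the small MAF genes comprised 5 with GABPA or ELF1, all away from the starts, and 4 that met no other list. MAFK, whose product pairs with NRF2 and with BACH1, had ETS1 and GABPA together at chr7:1543342-1544694 (26.0 kb) and at chr7:1608805-1610275 (39.5 kb), with centres 19 and 36 bp apart. The GABPA peak at 26.0 kb stood on line 11 of 2478. Near its start, first-list peaks lay at 0.7 and 2.4 kb, and the second list held the one at 2.4 kb alone. A region 25.8 kb from the MAFK start also met no other list. MAFG had an ETS1 region at its start, chr17:79884339-79886315, with no other list, and an ETS1 region with GABPA at chr17:79848596-79850165, 35.6 kb away, with centres 24 bp apart. Its region at 10.2 kb met no other list. A further MAFG region, 50.5 kb away in centre, reached into the window through its first-list peak and held an ELF1 peak that lies just outside it.

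MAFF had 1 ETS1 region, chr22:38577230-38578195, 20.3 kb from the start, which held the ELF1 peak. Its centre was 210 bp from the ETS1 window. At 1.0 kb from the MAFF start the first list had a peak of 745 bp, on line 9574 of 9984, which the second list did not match. Across the 9 genes, 8 first-list peaks and 2 second-list peaks had no counterpart in the other list, and 27 of 35 first-list peaks were matched (77.1%, 59.9 to 89.6%), against 82.0% in the whole list. Of the second-list peaks, 26 of 28 were matched (92.9%, 76.5 to 99.1%), against 88.4% in the whole list. The median position of those 8 was 88.6% of the length of their list, with a range of 25.1 to 96.8%. No source used here says what the order of the lines means.

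Most ETS1 intervals at the starts were wide. A start counts as met when any base lies within 1 kb of it, which a wide interval does more easily. First-list peaks lay at 8 starts, with widths of 745 to 4628 bp and a median of 2136 bp. Those at MAFF (745 bp) and MAFK (1029 bp) were narrower than the list median of 1173 bp. The 6 ETS1 regions within 1 kb of a start were 1734 to 4628 bp wide with a median of 2424 bp, against 625 to 4627 bp with a median of 1264 bp for the 21 others near these genes. The series median was 1273 bp. Of the 6, 3 held JUND (FOSL1, FOSL2 and JUNB), 2 held PANC1 ETS1 (FOSL1 and JUN), 1 held another ETS factor (JUNB, with ELK4), and the 2 at JUND and MAFG met no other list, against 12 of the 21 others and 63.8% of all ETS1 regions. Of the 21 others, 3 held JUND, all at FOSL1, 2 held PANC1 ETS1, also at FOSL1, and 6 held another ETS factor. Wide intervals meet other lists more easily than narrow ones, and the part of width in these overlaps was not tested.

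**Figure D5:**
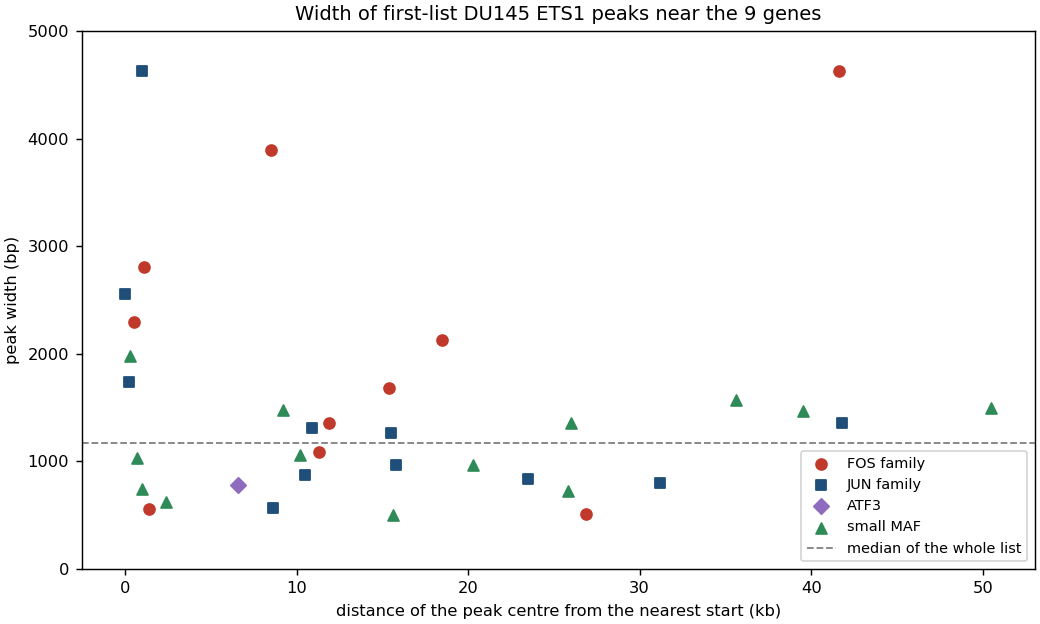
Width in bp of the 35 first-list DU145 ETS1 peaks against the distance of their centre from the nearest start in kb, with symbols for the gene families and a dashed line at the median of the whole list, 1173 bp. The widest peaks are at the JUNB start and at FOSL1, 8.5 and 41.6 kb from its start.

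When the peaks within 50 kb were merged across the lists, the 9 genes had 39 sites. The sites of the whole series were merged from all peaks, without such an edge. The MAFG site 50.5 kb away therefore counts here as 1 assay, although it meets an ELF1 peak just outside the window. More than 1 assay (DU145 ETS1, JUND, GABPA, ELK4, ELF1 or PANC1 ETS1) was present at 15 of them (38.5%, 23.4 to 55.4%), against 26.9% (26.1 to 27.7%) of all 12057 sites in the series. Of the 39, 4 held 3 assays (10.3%), against 3.33% of all sites. None held 4 or 5, which 0.456% and 0.0498% of all sites did. These 4 were the JUNB start and the FOSL1 sites at 0.6, 8.5 and 41.6 kb. FOSL1 also supplied more of the 15 sites with more than 1 assay than any other gene. The interval of the 39 sites, 23.4 to 55.4%, contains the 26.9% of the series. The share without FOSL1 was not computed. No excess is therefore claimed for the 9 genes, or for those other than FOSL1.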

How the data were processed

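Per the submitters' processing notes, the build is hg19 and Bowtie2 2.0.6 was used, with no role given. How peaks were called, at which threshold and with which background, and the depth are not stated in the sources used here; the 2 inputs were not analysed here. The deposited lists hold 3 columns (chromosome, start, end) in bp, with no other value per peak. Starts were read as BED and are printed as counted from 1. The first and second ETS1 lists (the second is marked R2) were counted as 1 sample.

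Peaks overlap where they share 1 bp or more. Software was Matplotlib 3.10.9, SciPy 1.17.1, NumPy 2.4.6 and Python 3.11.15. Shares carry exact 95% Clopper-Pearson intervals, and no p-value was computed. Overlap and window steps were tested on simulated data. No hg19 genome or annotation was used, so other AP-1 and MAF genes were not placed. All 9 members are named, and single peaks are named where they lie at a start, where 3 or more lists meet, or where they are the nearest of a list. Other peaks were named after their values were seen. The genes and lists were chosen with earlier results of these data known.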

Additional observations from a re-analysis of the deposited data

How the results depend on the processing

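No paired analysis was possible because each group has 1 sample. Counts were repeated with distances of 25 and 100 kb, centres within 50 kb, wider peaks, earlier lines, other ETS1 lists and 3 other overlap rules. For earlier lines the PANC1 ETS1 list was kept whole, so that setting does not test the PANC1 peaks by line. Starts moved by 500 bp and leaving out FOSL1 were added after seeing the data. Counts that changed by more than 1.5 times are given here. Within 25 kb, GABPA had 2 peaks at 2 genes, against 7 at 4 genes, and 2 ETS1 regions held another ETS factor, against 7. Within 100 kb, GABPA had 13 peaks, ELK4 4 and ELF1 3, and 13 regions held another ETS factor. Among wider peaks there were 12 ETS1 regions (27 in all), 5 JUND, 4 GABPA, 1 ELK4, 0 ELF1 and 1 PANC1 ETS1 peaks, and 3 regions held another ETS factor and 1 held PANC1 ETS1. Among earlier lines there were 13 ETS1 regions and 5 JUND peaks, and 3 regions held JUND. With the centre of the merged region, not of the second-list window, within 200 bp of the other peak's centre, 2 regions held JUND, against 6, and 2 held PANC1 ETS1, against 4. With starts 500 bp higher, ELF1 had 2 peaks. Without FOSL1 there were 4 JUND peaks and 1 PANC1 ETS1 peak, 2 regions held JUND and 1 held PANC1 ETS1. At the starts, 6 genes had ETS1 regions, and 8 had a peak of the first list or the union. The unknown depth limits every absent peak.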
